A study of Rattus norvegicus with 6 samples.

Results

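The genes described here are the nitric oxide synthases and the genes around them: Nos3, Nos1 and Nos2, the caveolin gene Cav1, the methylarginine-degrading enzyme gene Ddah1, the cofactor synthesis genes Gch1, Pts and Spr, and Arg1 and Ass1 of arginine metabolism. They were measured in rat aorta on an Affymetrix chip, on which a probe set is a group of short probes that together give an intensity for a transcript. All probe sets whose only gene symbol was one of these names were taken and kept apart, which gave 24 of the 8799 probe sets for the 10 genes, of 4736 genes named on the chip. The tested group was aortae of spontaneously hypertensive rats, an inbred strain with high blood pressure, that ran in a wheel cage by choice for 5 weeks. It was set against aortae of rats of the same strain that did not run; the question was what running does to transcripts in the aorta. Arrays A, B and C made up each group of 3, with the RNA of 3 aortae pooled on every array. Age, sex and the assignment of animals to pools are not in the labels, so the p-values below speak of differences between pools only, some of which may be technical.

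Nitric oxide synthases make nitric oxide from arginine, with citrulline as the other product. Nos3 encodes the endothelial form, Nos1 the neuronal form, and Nos2 the form that immune signals induce in macrophages and smooth muscle. In the aorta, nitric oxide from the endothelium relaxes the smooth muscle beneath it through soluble guanylyl cyclase and cyclic GMP. The enzymes work as dimers and need the cofactor tetrahydrobiopterin, which Gch1, Pts and Spr make in that order. Caveolin-1, the coat protein of membrane pits called caveolae, binds the endothelial enzyme and holds it inactive. Ddah1 breaks down asymmetric dimethylarginine, an inhibitor that the body makes itself. Arg1, arginase, uses up arginine, while Ass1 takes the first step that turns citrulline back into arginine.

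No gene of the group passed the test between running and non-running rats. By limma with Benjamini-Hochberg adjustment over all 5244 probe sets tested, 0 of the 14 member probe sets tested were higher and 0 lower at an adjusted p under 0.05, beside a background of 0% higher and 0% lower over all probe sets. At an unadjusted p under 0.05, 0 of the 14 were higher and 3 were lower, beside 3.83% higher (201) and 4.23% lower (222) of all tested. All 3 were probe sets of Nos3. The intensities of the groups did not overlap for 3 of the 14, again all Nos3, beside 14.9% of all tested: 1 was higher, beside 7.36%, and 2 were lower, beside 7.49%. The median log2 difference of the 14 was 0.12, with 8 above and 6 below 0, and that of all tested probe sets was -0.005. The members' adjusted p-values ran from 0.484 to 0.943. All differences are runner minus non-runner on the log2(intensity + 2.4) scale, which understates changes of dim probe sets.

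The promoter sequences of Nos3 and Ddah1 are shown because these are the members with the most to compare in the values below, Nos3 with probe sets that went in opposite directions and Ddah1 with probe sets that went the same way. Each run is the 250 bases before the gene's start, from RefSeq on the rat build GRCr8, for Nos3 on the minus strand at chr4:11706582-11706831 and for Ddah1 on the plus strand at chr2:237327562-237327811. Capitals mark matches to the GC box GGGCGG, the letters bound by Sp1, the TATA box TATAAA, and GAGACC, known as a shear stress response element, each searched on both strands, where no motif overlapped another.
Nos3: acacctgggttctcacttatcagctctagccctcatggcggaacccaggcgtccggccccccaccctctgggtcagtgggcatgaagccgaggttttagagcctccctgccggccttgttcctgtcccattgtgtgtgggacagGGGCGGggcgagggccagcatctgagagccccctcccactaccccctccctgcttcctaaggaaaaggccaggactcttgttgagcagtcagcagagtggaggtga
Ddah1: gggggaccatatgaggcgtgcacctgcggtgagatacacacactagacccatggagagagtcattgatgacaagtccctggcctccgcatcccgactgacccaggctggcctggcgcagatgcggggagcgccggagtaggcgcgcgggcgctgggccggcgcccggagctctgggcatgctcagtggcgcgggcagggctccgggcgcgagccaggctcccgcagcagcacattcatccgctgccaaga
The Nos3 window held 1 GC box, and neither of the other motifs was found in it. In the Ddah1 window none of the 3 was found. Of 33469 rat promoter windows of the same length, 30.5% held the GC box, 12.9% the TATA letters and 13.7% the GAGACC letters. A match is a string of letters, not a measured binding site, and nothing in the arrays reads promoter activity directly. Of the 10 genes, 8 had an entry in the promoter table.

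A level for what counts as signal was the 95th percentile, 40.8, of 19 control probe sets that match yeast genes or the sense strand. Of the 24 member probe sets, 4 lay above that level on all arrays, 6 on some and 14 on none. The 4 were those of Cav1 (Z46614cds_at) and Spr (M36410_g_at), and the brighter ones of Ddah1 (D86041_at) and Nos3 (AJ011115_g_at). No probe set of Nos1, Gch1, Arg1 or Ass1 exceeded 40.8 on any array. No fold between the groups is read from a single probe set that lay below it on every array. Such probe sets still enter the counts of direction, the medians and the mean over Nos3 probe sets. For Nos1 AF008912_at a range over the processing alternatives is also printed. The test left out the dimmest 40% of probe sets, and with them 10 of the 24: 3 for Gch1, 2 each for Nos1 and Nos2, and 1 each for Nos3, Arg1 and Ass1. Their intensities ran from 0.5 to 24.4.

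Nos3 had 6 probe sets, and they did not go the same way. AJ011115_g_at had intensities of 66.8, 69.6 and 50 on runner arrays A, B and C, against 103.1, 69.1 and 91.4 on non-runner arrays A, B and C. The groups touched at runner B and non-runner B, and separated once the arrays were quantile normalized. The means were 62.1 ± 10.6 in runners and 87.9 ± 17.3 in non-runners (n = 3, SD), a log2 difference of -0.51 ± 0.21 (SE, 95% interval -1.0 to -0.02, limma adjusted p = 0.595). AF110508_at, in contrast, had 62.5, 61.9 and 75.3 in runners, against 61.4, 40.6 and 47.6 in non-runners. Each runner array lay above each non-runner array, by a narrow margin at non-runner A. The means were 66.6 ± 7.6 in runners and 49.9 ± 10.6 in non-runners (n = 3, SD), a log2 difference of 0.40 ± 0.18 (SE, 95% interval -0.01 to 0.80, limma adjusted p = 0.625).

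U02534_at, near the control level, had 33.8, 32.2 and 41.5 in runners, against 44.3, 35.5 and 36.7 in non-runners. Its groups overlapped, 1 array of each group lay above the control level, and the log2 difference was -0.14 ± 0.15 (SE, limma adjusted p = 0.821). The other tested Nos3 probe sets lay below the control level on all arrays. AJ011116_at had 17.8, 13.6 and 21.7 in runners, against 35.1, 27.4 and 23.3 in non-runners (limma unadjusted p = 0.00873, adjusted p = 0.484). AJ011115_at, which carries the same accession as the brightest Nos3 probe set, had 17.8, 13.8 and 18.6 in runners, against 27.4, 20.2 and 21.6 in non-runners (limma unadjusted p = 0.0266, adjusted p = 0.585). In both, all runner values lay below all non-runner values, but at intensities where the control probe sets also gave signal. The sixth Nos3 probe set, AF085195_at, was at 1.0 to 2.8 and was not tested.

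**Figure D1:**
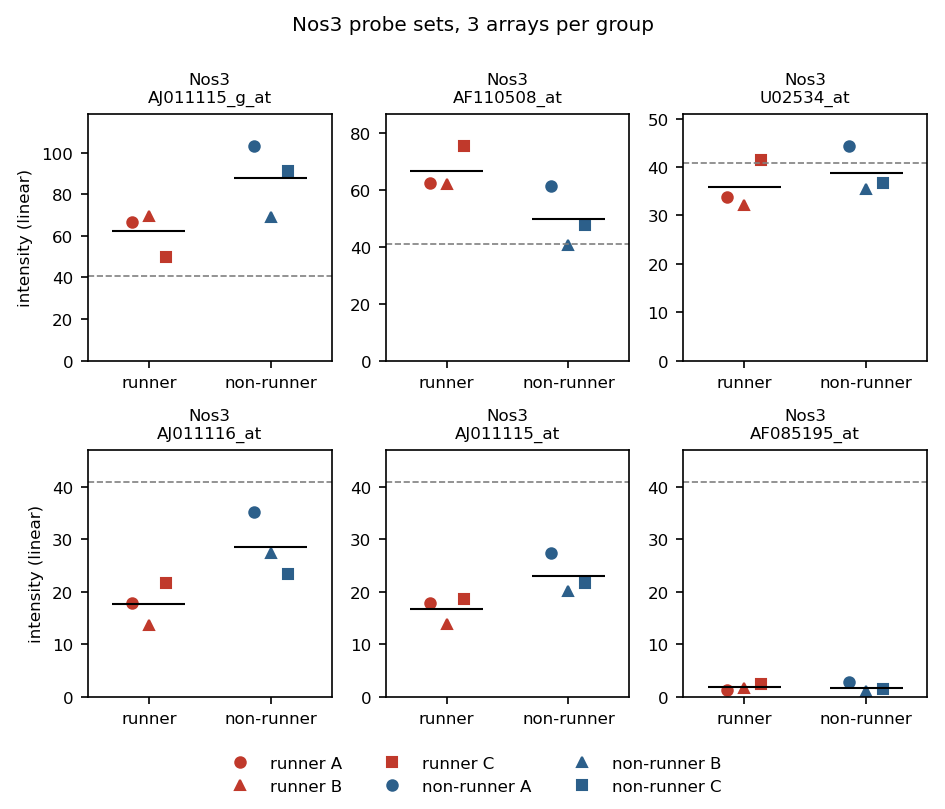
Intensity (linear scale) of the 6 Nos3 probe sets on each array, runners left and non-runners right, with A, B and C as circle, triangle and square, the group mean as a black line and the control level of 40.8 as a dashed line. Runner values of AJ011115_g_at (50 to 69.6) lie mostly below the non-runner values (69.1 to 103.1), those of AF110508_at (61.9 to 75.3) lie above them (40.6 to 61.4), and the lower row stays under the control level.

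The opposite directions were compared within arrays, a comparison chosen after the values were seen. The log2 ratio of AJ011115_g_at to AF110508_at was 0.07, 0.16 and -0.60 on runner arrays A, B and C, against 0.74, 0.73 and 0.89 on non-runner arrays A, B and C. It differed between runners and non-runners by -0.91 (two-sided exact permutation p = 0.1, the smallest that 3 arrays against 3 allow). The ratio was lower on every runner array, which restates the directions for which the pair was chosen, and neither probe set passed the test alone. Taking the mean of the 5 tested Nos3 probe sets gave a log2 difference of -0.28 ± 0.15 (SE, limma adjusted p = 0.674). The adjustment ran over 4095 genes and probe sets without a single symbol. Of the 5, 2, AJ011116_at and AJ011115_at, lay below the control level on all arrays.

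Non-runner B was unlike the other arrays, and it holds the lowest non-runner value of both bright Nos3 probe sets. Its log2 values differed from those of another array with an SD of 0.56 to 0.61, against 0.36 to 0.41 among the rest. Its beta-actin 3'/5' ratio, a sign of RNA quality that is high where the 5' end of transcripts gives weak signal, was 2.14, against 1.22 to 1.67 on the other arrays. Runner arrays averaged 1.31 ± 0.11 for this ratio, and non-runner arrays 1.70 ± 0.43 (n = 3, SD, exact permutation p = 0.3, two-sided), with overlap. The GAPDH ratio averaged 1.17 ± 0.06 in runners and 1.52 ± 0.38 in non-runners (exact permutation p = 0.1). That p is the smallest that 3 arrays against 3 allow. The single GAPDH ratios were 1.183, 1.222 and 1.113 on runner arrays A, B and C. Those of non-runner arrays A, B and C were 1.223, 1.954 and 1.391. Every non-runner array thus lay above every runner array for GAPDH, by a very narrow margin at non-runner A. The part of RNA quality in the results here was not tested. Without non-runner B the log2 difference was -0.66 for AJ011115_g_at (limma adjusted p = 0.452) and 0.27 for AF110508_at (limma adjusted p = 0.736). Leaving out runner C instead gave -0.34 for AJ011115_g_at, which had its lowest value on that array.

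Nos3 is an endothelial gene, so its values were set beside markers of that cell type. Of 20 endothelial markers in the list, 11 had a probe set with a single symbol, 4 of these lay above the control level on all arrays, 5 on none, and 0 had an intensity of 0 on any array. Kdr, a VEGF receptor, and Vwf, von Willebrand factor, lay below the control level throughout. The summed intensity of the 11 was 653 to 722 on runner arrays and 673 to 854 on non-runner arrays, so the groups overlapped. Of 8 tested markers, 1 was above 0 and 7 below, with 0 called in either direction and a median of -0.06. Flt1, a VEGF receptor, had 57.9, 41.5 and 41.7 in runners, against 65.4, 59.6 and 65.7 in non-runners (limma adjusted p = 0.611). Egfl7, secreted by endothelial cells, had 37.2, 34.1 and 14.6 in runners, all under the control level, against 86.7, 140.1 and 129.7 in non-runners (limma adjusted p = 0.229). These were the 2 of the 8 tested markers without overlap, beside 14.9% of all tested probe sets. Pecam1, an adhesion molecule of endothelial junctions, had a higher runner mean, with 184.4, 167.1 and 161.4 in runners, against 195.1, 79.2 and 126.3 in non-runners (limma adjusted p = 0.726). Its runner values lay inside the range of the non-runner values. The part of endothelial content in the Nos3 values was not tested. In such bulk tissue, fewer cells of a type and less RNA per cell cannot be told apart.

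**Figure D2:**
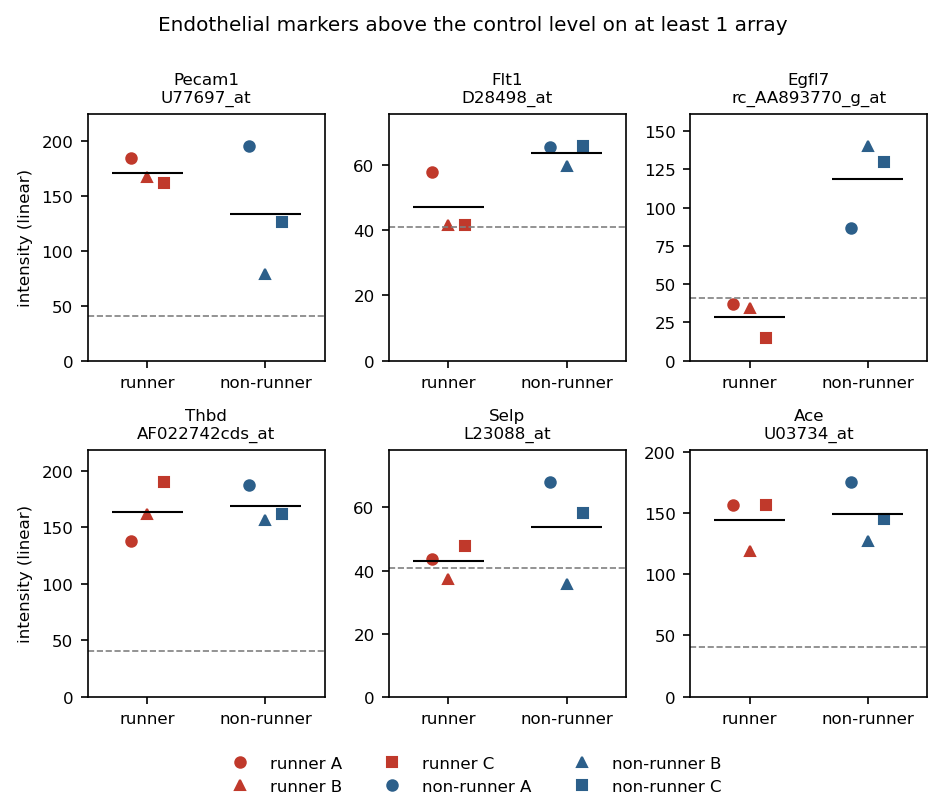
Intensity (linear scale) of the 6 endothelial markers above the control level (dashed, 40.8) on at least 1 array, runners left and non-runners right, with array letters and group means as in the Nos3 plot. All runner values of Egfl7 and Flt1 lie below all non-runner values, and those of Egfl7 lie under the control level. Pecam1 has a higher runner mean but overlaps, as do Thbd, Selp and Ace.

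Nos2 had 4 single-symbol probe sets, of which 2 were tested. U16359cds_at had 96.8, 12.8 and 85.5 in runners, against 84.6, 90.1 and 84.1 in non-runners. Runner B alone was low, and the other 5 arrays lay between 84.1 and 96.8. The log2 difference was -0.81 ± 0.64 (SE, limma adjusted p = 0.757) with all arrays and 0.07 (limma adjusted p = 0.977) without runner B, so that array set both the size and the sign. S71597_s_at did not share the low value, with 34.6, 46.8 and 53.0 in runners, against 48.6, 34.2 and 37.3 in non-runners (0.12 ± 0.19 on the log2 scale, SE, limma adjusted p = 0.879). The dimmer AF006619_s_at was at 6.9 to 24.4 in runners and 7.8 to 14.0 in non-runners, and U03699complete_seq_at at 5.2 to 6.8 in runners and 5.4 to 9.6 in non-runners. The ending _s_at marks probes that can match more than a single transcript. A further 3 probe sets carry the symbols of both Nos2 and its pseudogene Nos2-ps1, and were kept out for that reason. The brightest of them, U48829_s_at, had 26.1, 35.5 and 42.5 in runners, against 24.7, 26.2 and 30.8 in non-runners. Markers of macrophages and leukocytes, a possible source of Nos2, had 9 of 13 genes on the chip, with 4 above the control level on all arrays and 4 on none. Their summed intensity was 1091 to 1448 in runners and 1196 to 1418 in non-runners, with Lyz2 as the largest part. Of 5 tested markers, 3 were above and 2 below 0, and 0 were called. Cd74 was the 1 of the 5 without overlap, beside 14.9% of all tested probe sets. It had 230, 324.4 and 315.7 in runners, against 372.7, 534.4 and 382.9 in non-runners (limma adjusted p = 0.585).

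Nos1 was close to the background in both groups. Its brightest probe set, AF008912_at, had 21.7, 19.1 and 22.6 in runners, against 19.5, 16.3 and 31.5 in non-runners (limma adjusted p = 0.943). U67309_at, at 6.7 to 9.0 in runners and 5.8 to 6.4 in non-runners, did not overlap as deposited but did after normalization, and X59949cds_s_at was at 1.8 to 2.6 in runners and 2.1 to 3.9 in non-runners. Nerve markers, of the cells that give this form its name, had 10 of 12 genes on the chip, 0 of them above the control level on all arrays. Their summed intensity was 186 to 391 in runners and 283 to 437 in non-runners. Skeletal and cardiac muscle markers, of another tissue with this form, had 10 of 11 genes on the chip, 2 of them above the control level on all arrays, and summed to 353 to 511 in runners and 432 to 598 in non-runners.

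Cav1 was measured by 1 probe set, Z46614cds_at, well above the control level. It had 317.0, 386.2 and 399.0 in runners, against 422.9, 247.0 and 313.0 in non-runners. The runner values lay inside the range of the non-runner values, which non-runners A and B spread widely. The means were 367 ± 44.1 in runners and 328 ± 88.9 in non-runners (n = 3, SD), a log2 difference of 0.17 ± 0.22 (SE, 95% interval -0.33 to 0.68, limma adjusted p = 0.847). Without non-runner B the difference was -0.01 (limma adjusted p = 0.994). Smooth muscle markers, of the main cell type of the vessel wall and another source of caveolin, had 9 of 11 genes on the chip, all 9 above the control level on all arrays. Their summed intensity was 17774 to 18422 in runners and 16775 to 20494 in non-runners, lowest on non-runner B as for Cav1. The single markers did not move together on that array. It was the lowest array for Acta2 (2913) and Myl9 (3167), and the highest for Tagln (4518) and Actg2 (943.6). Adipocyte markers, of a further cell type rich in caveolae, had 9 of 10 genes on the chip, 8 above the control level on all arrays. Their summed intensity was 4216 to 4965 in runners and 3616 to 5340 in non-runners, again lowest on non-runner B. There too the markers differed, as non-runner B was the lowest array for Ucp1 (764.3) but lay above every runner array for Lpl (750.4).

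Both Ddah1 probe sets had higher runner means, with intervals that reached 0, and the log2 difference of rc_AI058941_s_at was the highest of the 14 member probe sets tested. D86041_at had 308.7, 336.7 and 345.8 in runners, against 233.0, 310.4 and 218.9 in non-runners. Non-runner B reached into the runner range, at just over runner A, and the other non-runner arrays lay well below it. The means were 330 ± 19.3 in runners and 254 ± 49.3 in non-runners (n = 3, SD), a log2 difference of 0.38 ± 0.17 (SE, 95% interval -0.02 to 0.79, limma adjusted p = 0.625). The other probe set, rc_AI058941_s_at, had 70.8, 58.9 and 82.2 in runners, against 64.4, 32.1 and 54.7 in non-runners. There non-runner B was the lowest array and below the control level, whereas in D86041_at it was the highest non-runner array. The log2 difference was 0.48 ± 0.25 (SE, limma adjusted p = 0.650). Without non-runner B it was 0.53 for D86041_at (limma adjusted p = 0.412) and 0.21 for rc_AI058941_s_at (limma adjusted p = 0.805). The mean of both probe sets differed by 0.43 ± 0.14 (SE, limma unadjusted p = 0.0173, adjusted p = 0.546). The Ddah1 point estimates were opposite in sign to that of the brightest Nos3 probe set, AJ011115_g_at (-0.51). They had the same sign as that of Nos3 AF110508_at (0.40), so the contrast depends on the Nos3 probe set taken. Of the 5 tested Nos3 probe sets 1 was above and 4 below 0, and 0 of all these passed the test.

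**Figure D3:**
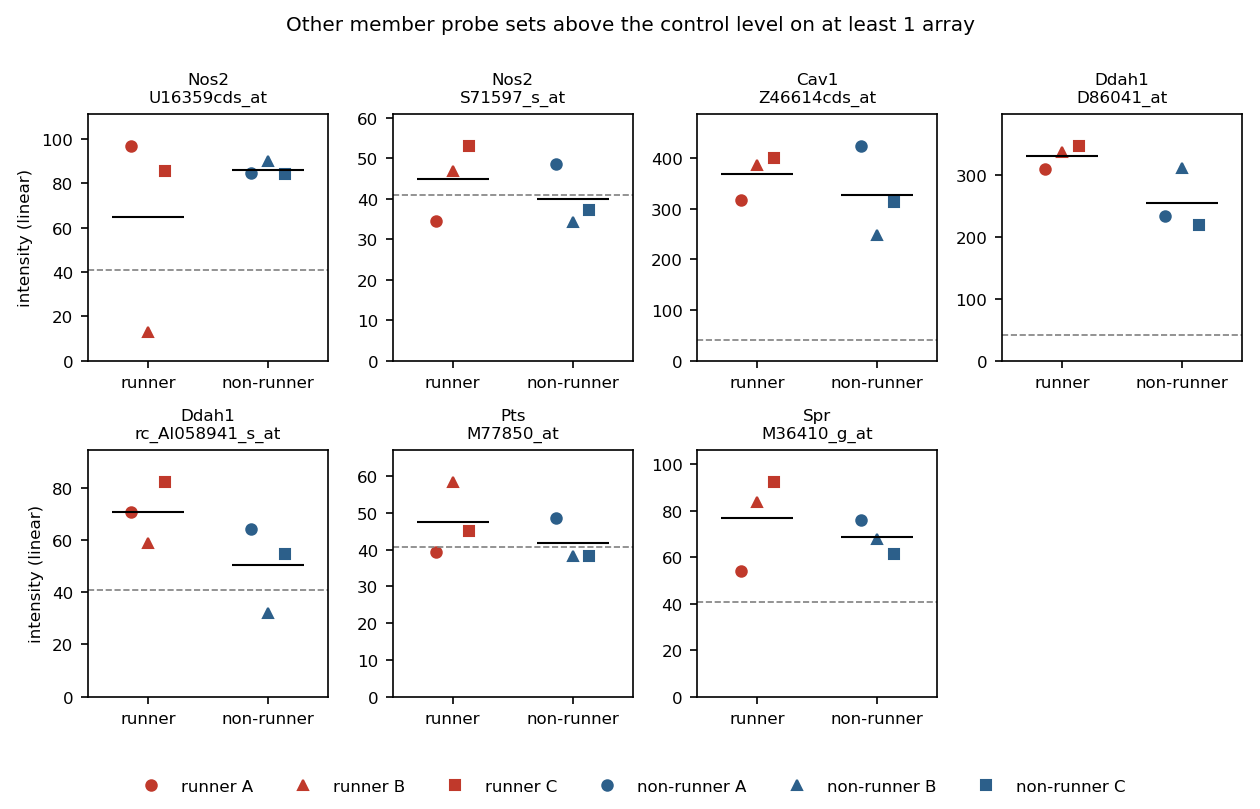
Intensity (linear scale) of the 7 tested probe sets of Nos2, Cav1, Ddah1, Pts and Spr above the control level (dashed, 40.8) on at least 1 array, runners left and non-runners right, with array letters and group means as in the Nos3 plot. The groups overlap in all 7, the single low point is runner B (12.8) in Nos2 U16359cds_at, and non-runner B lies at the top of its group for Ddah1 D86041_at (310.4) and at the bottom for rc_AI058941_s_at (32.1).

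The tetrahydrobiopterin genes differed little. Gch1, GTP cyclohydrolase and the first step, had rc_AI043643_at at 25.8, 36.1 and 35.4 in runners, against 36.2, 27.1 and 21.1 in non-runners, below the control level on all arrays (limma adjusted p = 0.836). The other 3 Gch1 probe sets lay between 0.5 and 18.9 and were not tested. Pts, the middle step, had 39.4, 58.4 and 45.1 in runners, against 48.7, 38.2 and 38.3 in non-runners (0.15 ± 0.18 on the log2 scale, SE, limma adjusted p = 0.848). Spr, sepiapterin reductase and the last step, had M36410_g_at at 54.3, 83.7 and 92.3 in runners, against 76.2, 68.0 and 61.4 in non-runners (0.13 ± 0.20 on the log2 scale, SE, limma adjusted p = 0.879). In Pts and Spr runner A was the lowest runner array, and the groups overlapped in all 3 genes. A second Spr probe set, M36410_at, also carries the pseudogene symbol Spr-ps1 and lay between 3.4 and 6.6. The 95% intervals, -0.28 to 0.57 for Pts and -0.34 to 0.59 for Spr on the log2 scale, leave room for changes in either direction.

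Arg1 and Ass1 gave values far below the control level. Arg1 had 8.0, 3.3 and 4.5 in runners, against 9.4, 18.9 and 11.2 in non-runners. The groups did not overlap, but both lay under 40.8, so no fold is given, and the probe set was left out of the test as dim. With no filter on dim probe sets its adjusted p was 0.639 by limma (unadjusted p = 0.0160). Ass1 had 1.9, 2.0 and 1.9 in runners, against 2.0, 2.6 and 2.4 in non-runners.

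**Figure D4:**
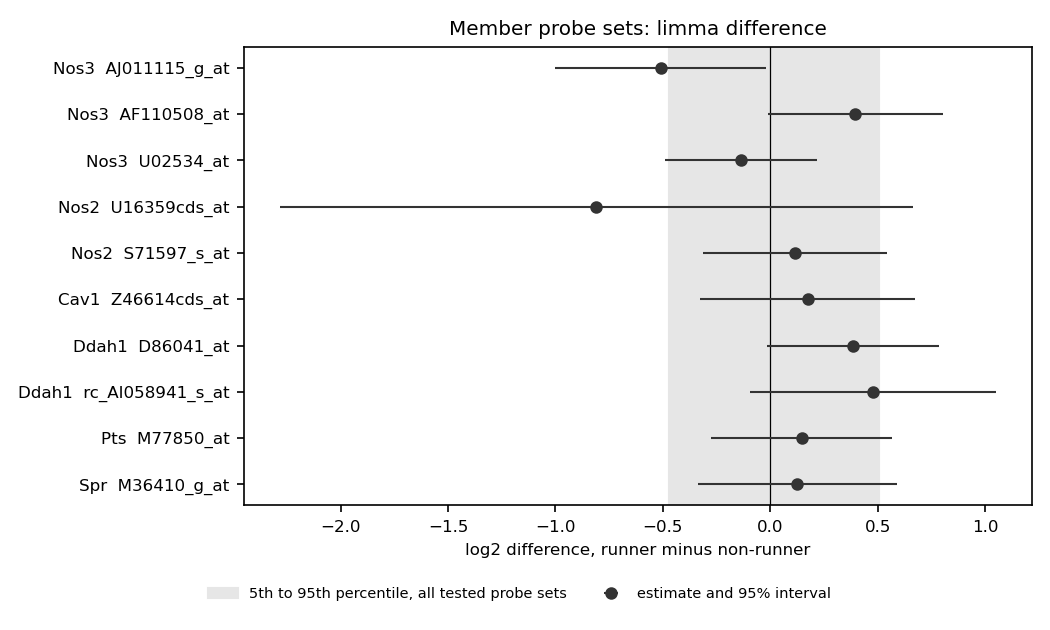
Log2 difference, runner minus non-runner, of the 10 tested member probe sets above the control level on at least 1 array, with limma's 95% interval as a bar, and the 5th to 95th percentile of all 5244 tested probe sets (-0.47 to 0.51) shaded. Only the interval of Nos3 AJ011115_g_at stays clear of 0, at -1.0 to -0.02 before adjustment, and the interval of Nos2 U16359cds_at is the widest.

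Other genes of the pathway were taken from 4 lists, by the brightest probe set of each gene, and 0 genes of any list passed limma's test at an adjusted p under 0.05. Of 22 partners of the synthases and caveolae genes, 12 were on the chip and 8 tested, with 3 above and 5 below 0 and a median of -0.10. Hsp90ab1, a form of the Hsp90 chaperone that binds the endothelial synthase, had 1745, 1903 and 1994 in runners, against 2133, 3039 and 2738 in non-runners (-0.47 ± 0.17 on the log2 scale, SE, limma adjusted p = 0.585). Dlg4, a scaffold that anchors the neuronal synthase, had 117.3, 109.1 and 107.2 in runners, against 132.3, 181.6 and 133.8 in non-runners (limma adjusted p = 0.601). Cavin3, a coat protein of caveolae, had 1026, 841 and 1007 in runners, against 1066, 1345 and 1208 in non-runners (limma adjusted p = 0.650). In these 3 the runner values lay below the non-runner values, and non-runner B was the highest array. Over the list, 4 of the 8 tested genes had groups that did not overlap, beside 14.9% of all tested probe sets, and the fourth went the other way. It was Akt1, a kinase that activates the endothelial synthase, with 289.2, 289.4 and 298.9 in runners, against 282.3, 262.6 and 268.1 in non-runners.

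Of 9 further tetrahydrobiopterin genes, which include enzymes that use the cofactor, 6 were on the chip and 4 tested, with 1 above and 3 below 0 and a median of -0.02. Th, tyrosine hydroxylase, which needs the cofactor and is also among the nerve markers, had 36.6, 68.8 and 29.8 in runners, against 101.7, 73.9 and 72.0 in non-runners (-0.93 ± 0.31 on the log2 scale, SE, limma adjusted p = 0.566). Its groups did not overlap, the 1 case among the 4 tested, beside 14.9% of all tested probe sets. Runners A and C lay below the control level. The nerve markers, Th included, had 0 of 6 tested genes above and 6 below 0, with a median log2 difference of -0.40, and 0 were called. Schwann cell markers, of the sheath around nerves, had 4 of 6 genes on the chip, 3 above the control level on all arrays. These 3 were tested, all 3 were below 0, and 0 were called. Mbp, the untested marker, went the other way without overlap, below the control level on all arrays. It had 20.7, 30.2 and 21.1 in runners, against 13, 12.7 and 13.9 in non-runners. The 4 Schwann markers on the chip summed to 1027 to 1137 in runners and 1279 to 1578 in non-runners, without overlap. Most of this sum came from Pmp22, with 814.2, 770.8 and 784.2 in runners, against 897.2, 1170 and 963.1 in non-runners. The values of S100b overlapped between the groups. The summed nerve markers overlapped too, at 186 to 391 in runners and 283 to 437 in non-runners. No marker of either list was at 0 on any array. The part of nerve content in the Th values was not tested. Cbr1, a carbonyl reductase, averaged 57.7 ± 4.1 in runners and 48.8 ± 10.9 in non-runners, and Qdpr, which recycles the oxidised cofactor, 196 ± 10.5 in runners and 203 ± 44.4 in non-runners (n = 3, SD).

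Of 20 genes of arginine and methylarginine handling, 15 were on the chip and 11 tested, with 7 above and 4 below 0 and a median of 0.07. Oat, ornithine aminotransferase, had 300.8, 303.8 and 287.5 in runners, against 271.3, 174.6 and 249.2 in non-runners (0.36 ± 0.19 on the log2 scale, SE, limma adjusted p = 0.659). Azin1, an inhibitor of antizyme, had 89.1, 68.6 and 85.4 in runners, against 89.0, 131.4 and 113.0 in non-runners (-0.44 ± 0.20 SE, limma adjusted p = 0.625). Oat was the 1 gene of the 11 tested without overlap between the groups, beside 14.9% of all tested probe sets. Slc7a2, an arginine transporter, lay below the control level on all arrays, at 11.4 to 22.0 in runners and 16.9 to 26.0 in non-runners.

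Of 20 genes of the nitric oxide receptor and cyclic GMP, 15 were on the chip and 12 tested, with 7 above and 5 below 0 and a median of 0.11. The 3 smallest p-values of the list belonged to phosphodiesterases, while Pde3a (unadjusted p = 0.541 by limma) and Pde6d (0.699) ranked behind genes of other kinds. Pde5a, which breaks down cyclic GMP in smooth muscle, had 37.7, 39.4 and 59.0 in runners, against 27.3, 25.2 and 33.2 in non-runners, with runner C alone above the control level (limma unadjusted p = 0.0176, adjusted p = 0.572). Pde1b, a calmodulin-dependent form, had 46.7, 46.3 and 50.9 in runners, against 39.8, 34.6 and 42.7 in non-runners (limma adjusted p = 0.680). Pde3b, a form that cyclic GMP inhibits, had 41.9, 40.8 and 35.7 in runners, against 34.0, 32.4 and 29.4 in non-runners (limma adjusted p = 0.726). In these 3 each runner array lay above each non-runner array, which makes 3 of the 12 tested genes without overlap, beside 14.9% of all tested probe sets, but most intensities were close to or under 40.8. Gucy1a1 and Gucy1b1, the subunits of the receptor itself, averaged 163 ± 9.3 and 72.4 ± 3.1 in runners, against 177 ± 43.4 and 91.2 ± 27.0 in non-runners (n = 3, SD).

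The genes whose pattern over the arrays was most like that of the brightest Nos3 probe set, by Pearson correlation of log2 values over the 6 arrays, were Scarb1 (r = 0.999), Maz (0.964) and Dnm1l (0.963), of 4317 named probe sets compared. Scarb1, the scavenger receptor that takes up cholesterol from HDL, had 146.7, 146.0 and 106.6 in runners, against 212.9, 153.5 and 202.2 in non-runners. For Cav1 the closest were Acvr2b (0.996), Jak1 (0.993) and Lamc1 (0.988). Lamc1, a laminin chain of basement membranes, had 368.5, 422.4 and 429.7 in runners, against 434.0, 337.9 and 380.1 in non-runners. An r above 0.9 was reached by 24 of the 4317 probe sets for Nos3 and by 68 of 4321 for Cav1. The genes named were picked as the highest of these over only 6 arrays, and the correlations were not tested. All probe sets of an array also share its scaling and RNA quality.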

How the data were processed

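Aortic RNA was measured on 6 chips, 3 per group, and groups came from the sample titles. The authors deposited intensities on a linear scale, 1 per probe set and chip. The sources used here do not give the software behind them, and no detection calls were used. Array medians ran from 28.5 to 32.2. An array has no read depth, so the number of arrays limits the precision. Symbols came from the platform annotation, which gave 7006 probe sets 1 symbol, 308 several and 1426 none, besides 59 control probe sets.

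The tests used log2(intensity + 2.4), where 2.4 is the 10th percentile of positive values, with quantile normalization because array medians differed by a factor of 1.13, more than the 1.1 allowed. Controls and the dimmest 40% of the rest were left out. The remaining 5244 probe sets were tested with limma 3.58.1 in R 4.3.3 (lmFit, eBayes, two-sided, Benjamini-Hochberg, threshold 0.05). The fit was tested on simulated data. Overlap of groups was read from deposited intensities. Members and lists were chosen with earlier results of these data known. All members were named, with up to 3 genes of each pathway list by smallest unadjusted p, and 3 genes most like Nos3 and Cav1. Akt1, Gucy1a1, Gucy1b1, Pde3a, Pde6d and the single endothelial, Schwann cell, smooth muscle, adipocyte and leukocyte markers were named after their values were seen. The results were also computed with other pseudocounts, normalizations, variance models and filters, with the chip letter as a block, and with each array left out. Figures used matplotlib 3.10.9.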

Additional observations from a re-analysis of the deposited data

How the results depend on the processing

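All alternatives were planned. With all 6 arrays, other pseudocounts, normalizations, filters and a variance model with trend left 0 probe sets higher and 0 lower by limma, members included. The number with an unadjusted p under 0.05 ran from 310 of 3496 tested, with the dimmest 60% left out, to 617 of 8740, with no filter. The fits with 1 array left out gave 0 to 4 probe sets higher and 0 to 1 lower over the whole table (4 higher without non-runner C, 1 higher and 1 lower without non-runner A), and 0 members in each case. Of 189 values for single member probe sets, 184 kept their direction and 5 changed it, each with 1 array left out. As arrays were left out, the log2 difference ranged from -1.31 to 0.072 for Nos2 U16359cds_at, from -0.0080 to 0.37 for Cav1, from -0.0054 to 0.24 for Pts, from -0.0022 to 0.33 for Spr and from -0.24 to 0.19 for Nos1 AF008912_at, which lay below the control level on every array, so its sign is not read. They turned without runner B (Nos2, Pts), runner C (Spr), non-runner B (Cav1) and non-runner C (Nos1). The tested Nos3 and Ddah1 probe sets kept their direction in every alternative that held them, AJ011115_g_at between -0.66 and -0.34, AF110508_at between 0.27 and 0.53, and D86041_at between 0.29 and 0.53. With the dimmest 60% left out, 7 of the 14 member probe sets remained in the test. Median centring moved the median of all probe sets to -0.045.

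The chip letter is not said to pair arrays, and arrays of the same letter did not deviate together (r = -0.09, -0.04 and -0.05). With the replicate block 0 probe sets were higher and 0 lower, and 357 had an unadjusted p under 0.05, against 423 without it. Most member probe sets lay near or below the control level of 40.8, where small differences cannot be told from background.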
